A study of Mus musculus with 28 samples.

Results

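The vesicle-associated membrane proteins (VAMPs) are a small family of membrane-fusion proteins, and their transcripts were followed here in mouse spleen T cells after treatment with rapamycin or with the polymer carrier used to deliver it. The family was taken as 7 listed genes, Vamp1, Vamp2, Vamp3, Vamp4, Vamp5, Vamp7 and Vamp8, matched to Ensembl gene IDs with the version dropped. Of these, 6 were found among the 55413 genes in the count files, and all 6 passed the filter on low counts that left 17132 genes for testing. Vamp7 matched no ID and was not analysed here. The family was chosen by a measured value, the level of Vamp2, which was higher after the empty carrier than in untreated mice. The comparison of those 2 groups is therefore a description for every member, and so is any comparison of Vamp2 that uses either group.

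All mice were male C57BL/6J, 8 to 12 weeks old and healthy, and RNA was taken after 11 days from splenic T cells (CD3+) obtained by magnetic sorting. The untreated group (NT) had 7 mice. PS mice (n = 4) received empty polymersomes, which are hollow vesicles of the block copolymer PEG-b-PPS, under the skin at about 60 mg polymer per kg by the stated concentrations. R mice (n = 6) received rapamycin in 0.2% CMC under the skin, RO mice (n = 6) received Rapamune, an oral rapamycin, by gavage, and rPS mice (n = 5) received rapamycin-loaded polymersomes under the skin at the same polymer dose as PS. The drug dose was 1 mg per kg in R, RO and rPS, every treated mouse had 11 daily doses, and no group received CMC alone. Each sample is spoken of here as 1 mouse, which the labels do not state outright, so p-values measure the spread between samples, which may be in part technical.

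Fusion of a transport vesicle with its target membrane is driven by SNARE proteins. A VAMP on the vesicle supplies 1 helix, the R-SNARE, and syntaxin and SNAP proteins on the target supply the Q-SNARE helices. The helices zip together, the Sec1/Munc18 proteins guide the assembly, and the ATPase Nsf takes the finished complex apart again. In T cells this machinery carries receptors back to the surface from recycling endosomes, releases cytokines and, in cytotoxic cells, empties lytic granules at the contact with a target cell. Rapamycin inhibits mTOR, the kinase that ties T cell growth to nutrients and to activation.

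The 28 libraries held between 4286896 and 15696541 counts. Levels are given in CPM, counts per 1000000 counts of the library. RO replicate 7 was left out of all values, because its counts stop on chromosome 12 and every gene expressed elsewhere on chromosomes 13 to 19, X, Y and the mitochondrion is at 0 there, so RO has n = 5 below. T cell transcripts were scarce in 6 libraries, of which 4 were untreated (replicates 3, 4, 7 and 8), 1 was R (replicate 3) and 1 was RO (replicate 3). The summed level of 10 T cell markers ran from 159.7 to 520.1 CPM in these 6 and from 832 to 3439.55 CPM in the other 21. The summed level of 7 monocyte and macrophage markers ran from 3671 to 7154 CPM in the 6 and from 146 to 1372 CPM in the others, and that of 6 B cell markers from 3053 to 14812 and from 941 to 7571 CPM. No marker of these 3 lists was at 0 in any library. A further mark of the untreated group is that each of its 7 libraries had Malat1 and mt-Rnr2 at 0, while the other 20 all had 10 CPM or more of both. In every comparison with NT, treatment and whatever set these libraries apart cannot be told apart.

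Promoter sequence was available for 4 of the 7 listed genes: Vamp1, Vamp4, Vamp5 and Vamp8. Those shown are Vamp1, the most abundant member by CPM, and the neighbouring genes Vamp5 and Vamp8, whose transcripts varied together from mouse to mouse as described below. Each run is the 200 bases from 250 to 51 bases before the RefSeq gene start in build GRCm38.p6, written 5′ to 3′ on the gene's strand. Capitals mark the motifs searched on both strands, which were the E-box CACGTG, the GC box GGGCGG, the CCAAT box CCAAT and the TATA box TATAAA.
Vamp1, chr6:125215331-125215530, plus strand: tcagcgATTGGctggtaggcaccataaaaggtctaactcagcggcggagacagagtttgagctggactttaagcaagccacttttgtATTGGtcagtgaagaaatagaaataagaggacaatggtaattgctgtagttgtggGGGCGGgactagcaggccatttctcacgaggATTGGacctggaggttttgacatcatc
Vamp5, chr6:72380519-72380718, minus strand: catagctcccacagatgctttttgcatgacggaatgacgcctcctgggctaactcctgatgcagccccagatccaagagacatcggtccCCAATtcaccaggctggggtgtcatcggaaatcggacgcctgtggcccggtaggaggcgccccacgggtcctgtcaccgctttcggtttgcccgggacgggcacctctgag
Vamp8, chr6:72390718-72390917, minus strand: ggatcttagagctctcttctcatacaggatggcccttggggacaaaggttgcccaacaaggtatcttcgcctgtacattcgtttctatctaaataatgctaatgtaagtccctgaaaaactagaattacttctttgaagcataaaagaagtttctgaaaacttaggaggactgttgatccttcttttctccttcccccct
The Vamp1 window held 3 CCAAT boxes, all read on the other strand as ATTGG, and 1 GC box. The Vamp5 window held 1 CCAAT box, and none of the 4 motifs was in the Vamp8 window. Over 32851 windows of the same length in the RefSeq table, 28.4% held a CCAAT box, 24.6% a GC box, 9.14% a TATA box and 4.34% the E-box. GC content was 47.5% for Vamp1, 61.5% for Vamp5 and 41.0% for Vamp8, beside a median of 51.5% over all windows. The E-box, a site that circadian and MYC-type factors can bind, was found among these 4 genes only upstream of the first of the 2 RefSeq starts of Vamp4. A match is a stretch of letters and not a shown binding site.

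Vamp1 and Vamp2, the synaptobrevins best known from neurotransmitter release, had the highest VAMP levels in CPM, which are not divided by gene length. Over the 27 libraries the median level was 176 CPM for Vamp1, 113 CPM for Vamp2, 42.8 CPM for Vamp4, 40.6 CPM for Vamp8, 36.01 CPM for Vamp3 and 16.7 CPM for Vamp5. Divided by exon length, the order of the medians changed to Vamp2 with 29.8 CPM per kb, Vamp8 with 17.5, Vamp1 with 17.3, Vamp3 with 12.5, Vamp4 with 9.38 and Vamp5 with 6.19. In NT alone the order of means per kb was Vamp8 with 24.9, Vamp2 with 22.3, Vamp3 with 16.2 and Vamp1 with 13.8 CPM per kb. Over all 27 libraries Vamp8 and Vamp1 lie within each other's range on that scale, from 7.73 to 43.5 and from 9.79 to 27.5 CPM per kb. Exon lengths come from GENCODE M21 (GRCm38), an older annotation than the build of the counts. The lowest count of any member in any library was 45, for Vamp5, so no value rests on a handful of reads.

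Vamp2 (ENSMUSG00000020894.17) is the R-SNARE of regulated secretion, and of the 6 members it had the largest fitted log2 fold change between PS and NT. In PS its level was 205, 196, 213 and 159 CPM. In NT it ran from 67.4 to 132 CPM with a median of 79.7, so each PS mouse lay above each NT mouse, as was so for 7.02% of all tested genes. The other treated groups lay between these. RO mice had 153, 90.0, 83.7, 168 and 158 CPM, and rPS mice had 112, 85.3, 145, 102 and 121 CPM. R mice ran from 87.6 to 166.5 CPM with a median of 119. All 5 rPS values were below all 4 PS values, while the highest R and RO values passed the lowest PS value.

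The means ± SD of Vamp2 were 85.0 ± 21.5 CPM in NT (n = 7), 193 ± 23.996 in PS (n = 4), 122 ± 28.6 in R (n = 6), 131 ± 40.4 in RO (n = 5) and 113 ± 22.1 in rPS (n = 5). The order was PS, RO, R, rPS, NT, and R, RO and rPS did not differ beyond their spread. As a description of the comparison by which the family was chosen, Vamp2 was 2.11-fold higher in PS than in NT, a log2 fold change of 1.08 ± 0.18 (SE). Against NT the log2 fold change was 0.51 ± 0.17 in R, 0.56 ± 0.17 in RO and 0.37 ± 0.18 in rPS, and from PS to rPS it was -0.71 ± 0.20. These comparisons share the NT or PS mice. Without the 6 libraries poor in T cell transcripts, the PS to NT value was 0.97 and the rPS to PS value -0.71. NT replicate 5, at 132 CPM, was the highest NT mouse, and without it the PS to NT value was 1.17.

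Between groups that had no part in the choice, Vamp2 could be tested. It did not pass the test in rPS against R, with a log2 fold change of -0.15 and a 95% interval from -0.52 to 0.23 (edgeR adjusted p = 0.758). It did not pass for rPS against RO, at -0.20 with an interval from -0.59 to 0.20 (edgeR adjusted p = 0.803), or for R against RO, at -0.05 with an interval from -0.42 to 0.32 (edgeR adjusted p = 1). These 3 groups received rapamycin at the same dose by different routes or carriers. A doubling in either direction lies outside all 3 intervals, while differences within the intervals remain possible.

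**Figure D1:**
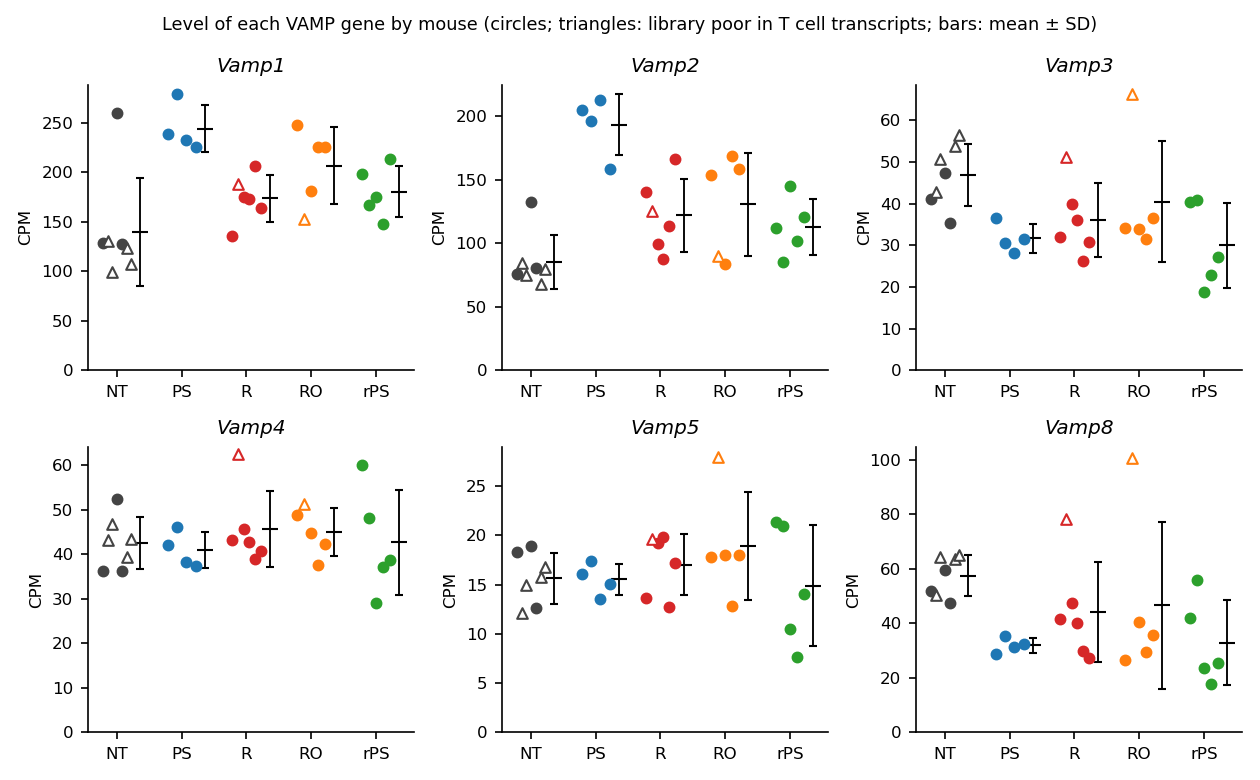
Level of each VAMP gene in CPM (y axis, from 0) by treatment group (x axis), 1 point per mouse; triangles are libraries poor in T cell transcripts and bars give the mean and SD. The 4 PS mice sit at 159 to 213 CPM for Vamp2, above all 7 NT mice, and the highest points for Vamp3 and Vamp8 are triangles.

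Vamp1 (ENSMUSG00000030337.17), the close relative of Vamp2, had 239, 279, 232 and 226 CPM in PS and ran from 99.6 to 260.5 CPM with a median of 128 in NT. RO mice had 248, 153, 181, 225 and 226 CPM, rPS mice had 199, 167, 176, 148 and 214 CPM, and R mice ran from 136 to 206 CPM with a median of 174. A single NT mouse, replicate 5, overlapped the PS range, and the other 6 NT mice were at or below 131 CPM. All 5 rPS and all 6 R values lay below all 4 PS values. In GENCODE M21 Vamp1 overlaps Tapbpl and Cd27 on the opposite strand. Whether the counting used strand is not given in the sources used here, so reads of these genes cannot be told apart from its own.

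Mean ± SD levels of Vamp1 were 139.8 ± 54.5 CPM in NT, 244 ± 23.9 in PS, 174 ± 23.7 in R, 207 ± 38.6 in RO and 181 ± 25.98 in rPS. The log2 fold change from NT was 0.71 ± 0.16 in PS, given as a description. It was 0.32 ± 0.14 in R (edgeR adjusted p = 0.307), 0.53 ± 0.15 in RO (edgeR adjusted p = 0.178) and 0.34 ± 0.15 in rPS (edgeR adjusted p = 0.0934), none of them past the threshold of 0.05. These 3 values depend on which NT libraries are used. Without NT replicate 5 the log2 fold changes were 0.49 in R (edgeR adjusted p = 0.0164), 0.69 in RO (edgeR adjusted p = 0.00532) and 0.51 in rPS (edgeR adjusted p = 0.00256). Without the 6 libraries poor in T cell transcripts they were 0.025 in R (edgeR adjusted p = 0.9755), 0.34 in RO (edgeR adjusted p = 0.647) and 0.10 in rPS (edgeR adjusted p = 0.774). Without those 6 and NT replicate 5 they were 0.35 (edgeR adjusted p = 0.170), 0.68 (edgeR adjusted p = 0.0187) and 0.42 (edgeR adjusted p = 0.0563). This last setting was added after seeing the data and left only replicates 2 and 6 in NT. From PS to rPS the value was -0.37 ± 0.17 (edgeR adjusted p = 0.922), and from PS to R it was -0.39 ± 0.16 (edgeR adjusted p = 0.616). The test did not call either, although the CPM ranges did not overlap. Groups that do not overlap in this direction occurred for 2.56% of all tested genes in rPS against PS and for 4.9% in R against PS.

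Vamp2 also took a larger part of the family's counts in PS. Its share of the summed CPM of the 6 genes was 34.6 ± 3.11% in PS and 21.9 ± 1.75% in NT, and 27.9, 26.4 and 27.5% in R, RO and rPS. The ratio of Vamp2 to Vamp1 counts ran from 0.70 to 0.92 in PS and from 0.51 to 0.76 in NT. The mean ratio was 0.79 ± 0.11 in PS and 0.63 ± 0.094 in NT, and the ranges overlap. The family's summed level was 557 ± 42.8 CPM in PS, 387 ± 81.6 in NT, 439 ± 45.6 in R, 488 ± 50.3 in RO and 414 ± 51.6 in rPS. These are descriptions, since the choice of the family used PS and NT.

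The fitted values of Vamp3 and Vamp8 against NT lay below 0. Vamp3 (ENSMUSG00000028955.4), or cellubrevin, sits on recycling endosomes and returns receptors to the cell surface. Its level ran from 35.4 to 56.4 CPM with a median of 47.4 in NT and from 26.1 to 51.3 CPM with a median of 33.99 in R. It was 36.5, 30.5, 28.01 and 31.5 CPM in PS, 34.1, 66.2, 33.99, 31.4 and 36.6 CPM in RO, and 40.4, 41.0, 18.7, 22.9 and 27.1 CPM in rPS. The lowest NT mouse reached below the highest mouse of every treated group. In GENCODE M21 Vamp3 overlaps Camta1 on the same strand, and the sources used here do not say how reads in the overlap were assigned. Vamp3 fell in rPS against NT, with a log2 fold change of -0.70 ± 0.23 (edgeR adjusted p = 0.0356). Means were 30.01 ± 10.2 CPM in rPS and 46.8 ± 7.48 CPM in NT. The test shares the NT mice with the comparison that chose the family.

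Myeloid transcripts also differed between these libraries, and their part in this result was examined only by the values that follow. Without the 6 libraries poor in T cell transcripts the log2 fold change of Vamp3 in rPS against NT was -0.45 (edgeR adjusted p = 0.186), and with B cell and macrophage covariates it was -0.32 (edgeR adjusted p = 0.176). Over all alternatives the adjusted p ran from 0.0172 to 0.223. Leaving out NT replicate 4, 7 or 8 or rPS replicate 4, 5 or 7 lost the call. The highest edgeR adjusted p of these 6 fits was 0.0983. In R and RO against NT, Vamp3 did not pass the test, at -0.39 ± 0.22 (edgeR adjusted p = 0.426) and -0.23 ± 0.23 (edgeR adjusted p = 0.673). The description for PS against NT was -0.69 ± 0.25.

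Vamp8 (ENSMUSG00000050732.10), or endobrevin, works at late endosomes and lysosomes and has been tied to the release of lytic granules. It ran from 47.6 to 65.2 CPM with a median of 59.8 in NT. In PS it was 28.7, 35.3, 31.4 and 32.4 CPM, all below the lowest NT mouse, as was so for 2.91% of all tested genes. RO mice had 26.5, 100.6, 40.6, 29.7 and 35.9 CPM and rPS mice had 41.9, 55.8, 23.8, 17.9 and 25.5 CPM, while R mice ran from 27.5 to 78.4 CPM with a median of 40.9. The top values of R and RO came from the libraries poor in T cell transcripts. In the description of PS against NT the log2 fold change was -0.97 ± 0.37. In rPS against NT it was -0.86 ± 0.34 and missed the threshold (edgeR adjusted p = 0.0683), with DESeq2 placing it under 0.05 (adjusted p = 0.0431). It also passed without rPS replicate 2, at -1.15 (edgeR adjusted p = 0.0225). The values in R and RO were -0.38 ± 0.32 (edgeR adjusted p = 0.592) and -0.30 ± 0.33 (edgeR adjusted p = 0.708).

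Vamp4 and Vamp5 overlapped between all groups and passed no test. Vamp4 (ENSMUSG00000026696.16) serves traffic between endosomes and the trans-Golgi network. It was 42.0, 46.1, 38.2 and 37.3 CPM in PS, 48.7, 51.3, 44.8, 37.5 and 42.4 CPM in RO, and 60.0, 48.2, 29.2, 37.0 and 38.8 CPM in rPS. It ran from 36.2 to 52.3 CPM with a median of 43.3 in NT and from 39.0 to 62.5 CPM with a median of 43.0 in R, so all groups overlapped. Vamp5 (ENSMUSG00000073002.10), called myobrevin and best known from muscle, was the least abundant member. Its group means lay between 14.9 ± 6.15 CPM in rPS and 18.9 ± 5.51 CPM in RO, with 15.6 ± 2.62 in NT, 15.5 ± 1.61 in PS and 17.04 ± 3.13 in R. In rPS against NT the 95% interval of the log2 fold change was -0.38 to 0.28 for Vamp4 (edgeR adjusted p = 0.835) and -0.59 to 0.34 for Vamp5 (edgeR adjusted p = 0.721).

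**Figure D2:**
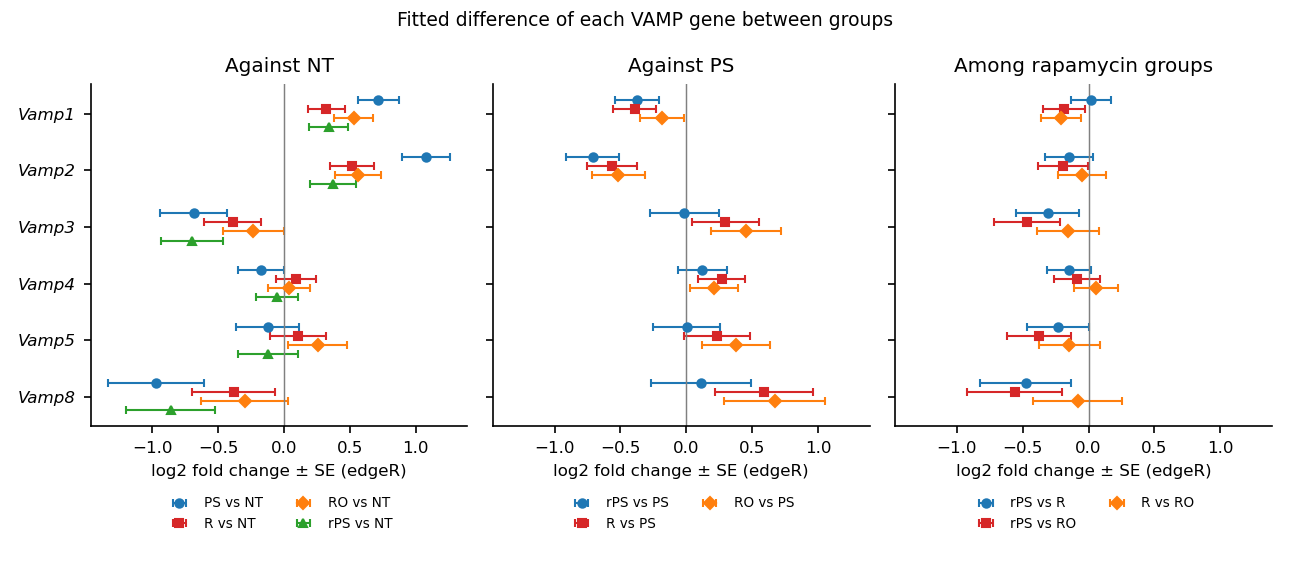
Fitted log2 fold change ± SE (x axis) of each VAMP gene (y axis) in the 10 comparisons between groups, in panels for comparisons with NT, with PS and among the rapamycin groups. Against NT the fitted values of Vamp1 and Vamp2 are above 0 and those of Vamp3 and Vamp8 below 0 in all 4 treated groups, while among rapamycin groups no member passed the test.

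Counted over the family, few members passed the test, and the shares of all genes called in the same comparisons set the scale. In PS against NT, 2 of 6 members were called, where 4.97% of all tested genes were called, and nothing is read from this count since the comparison chose the family. In rPS against NT, 1 of 6 members was called, beside 21.5% of all tested genes, so the members' share is near the background. In R against NT it was 0 of 6 beside 0.665%, and in RO against NT 0 of 6 beside 0.0117%. Against PS, 0 of 6 were called in rPS beside 0.0817%, 0 of 6 in R beside 0.0117% and 0 of 6 in RO beside 0%. Among the rapamycin groups, 0 of 6 were called in rPS against R beside 0.0117%, 0 of 6 in rPS against RO beside 0.0175% and 0 of 6 in R against RO beside 0%.

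At an unadjusted p under 0.05 the edgeR counts were 2 of 6 in R against NT beside 13.9% of all tested genes, 2 in RO against NT beside 12.7% and 4 in rPS against NT beside 37.8%. Against PS they were 2 in rPS beside 4.97%, 2 in R beside 7.8% and 1 in RO beside 2.53%. Vamp2 is among the members in each of these 6 counts and is the only one in RO against PS, and since its levels in NT and PS chose the family, nothing is read from them. The counts were 0 in rPS against R, rPS against RO and R against RO, beside 11%, 8.11% and 2.94%. DESeq2 called 0 members in every comparison other than PS and rPS against NT. The median log2 fold change of the members was -0.09 in rPS against NT, beside -0.01 over all genes, and -0.19 in rPS against R, beside -0.01. In rPS against NT the fitted values of the synaptobrevins were above 0 and those of the other 4 members below 0.

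The interaction contrast asks whether adding rapamycin to the carrier changed a gene by another amount than injecting free rapamycin in CMC did. It was computed as (rPS - PS) - (R - NT). In its R - NT part the drug, the CMC, the injections and whatever set the NT libraries apart cannot be told apart. For Vamp2 the contrast was -1.22 ± 0.26 on the log2 scale, given as a description. Vamp2 was lower in rPS than in PS and higher in R than in NT. For Vamp1 it was -0.70 ± 0.22, and without the 6 libraries poor in T cell transcripts it was -0.40. The other 4 members had values from -0.11 to 0.50. The contrast holds the difference between PS and NT that chose the family, so these values are descriptions and nothing is read from the calls. By edgeR 0 of 6 were called beside 0.0175% of all tested genes, 2 had an unadjusted p under 0.05 beside 4.71%, and DESeq2 called 1, Vamp2.

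Of the 6 members, 4 varied together between mice of the same group. After the group mean was taken off log2 CPM, Vamp3, Vamp4, Vamp5 and Vamp8 were high or low in the same libraries. Their 6 pairs had a Spearman rho from 0.66 to 0.87 over 27 libraries and from 0.65 to 0.86 over the 21 libraries not poor in T cell transcripts. The highest was 0.87, for Vamp3 and Vamp8. Vamp2 ran against these 4, with rho from -0.15 to -0.41, and its rho to Vamp1 was 0.39, or 0.31 over the 21 libraries. These are descriptions across libraries that share their sequencing depth and cell makeup, and no p is given.

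Myeloid transcripts were high in the 6 libraries poor in T cell transcripts, while the VAMP genes that varied together were not all high there. Lyz2, the lysozyme of macrophages and neutrophils, ran from 1865 to 3721 CPM in the 6 libraries poor in T cell transcripts and from 18.9 to 693 CPM in the others. Vamp8 ran from 50.3 to 100.6 CPM (median 64.8) in those 6 and from 17.9 to 59.8 CPM (median 35.3) in the other 21. Vamp3 ran from 42.9 to 66.2 CPM (median 52.5) in the 6 and from 18.7 to 47.4 CPM (median 33.99) in the others. The medians of Vamp4 were 45.2 CPM in the 6 and 42.0 CPM in the others. For Vamp5 they were 16.3 and 17.1 CPM. Pooled medians of every member mix in the groups, since 4 of the 6 libraries are NT and none is PS. In NT, Vamp8 was 50.3 to 65.2 CPM in the poor libraries and 47.6 to 59.8 CPM in the rest. Vamp3 was 42.9 to 56.4 CPM in those NT libraries and 35.4 to 47.4 CPM in the rest, so both genes overlapped. In R and in RO, replicate 3 lay above the rest of its group for both genes. Within groups, R replicate 3 had 125 CPM of Vamp2 beside a group median of 119, and RO replicate 3 had 90.0 CPM beside 153. For Vamp1 R replicate 3 had 188 CPM beside 174, and RO replicate 3 had 153 CPM beside 225, so the 2 libraries lay on opposite sides of their group medians. In bulk RNA a change in the number of cells of a type and a change in RNA per cell cannot be told apart.

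Restricted to NT, PS and rPS libraries not poor in T cell transcripts, Vamp8 was 47.6 to 59.8 CPM in 3 NT mice, 28.7 to 35.3 in PS and 17.9 to 55.8 in rPS. Vamp2 was 75.5 to 132 CPM in the same 3 NT mice and 159 to 213 CPM in PS. Without the 6 libraries the log2 fold change of Vamp8 in rPS against NT was -0.67 (edgeR adjusted p = 0.147).

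**Figure D3:**
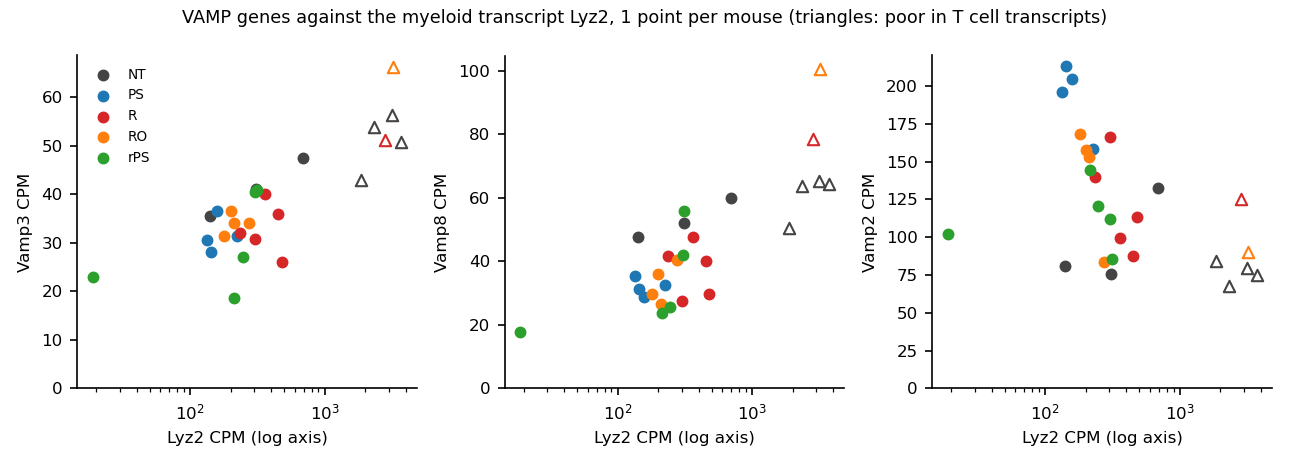
CPM of Vamp3, Vamp8 and Vamp2 (y axes, from 0) against the CPM of the myeloid transcript Lyz2 (x axis, log scale), 1 point per mouse, coloured by group, with triangles for the 6 libraries poor in T cell transcripts. The highest points for Vamp3 and Vamp8 are triangles, at 1865 CPM of Lyz2 or more, but triangles and other points overlap. The 4 PS mice are high for Vamp2 at low Lyz2.

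The genes most like Vamp2 were ranked by the same group-centred Spearman rho over 27 libraries, among 14255 tested genes with a symbol and a mean of at least 2 CPM. The top 5 were Brsk2, a kinase of the nervous system, with a rho of 0.86, A830035O19Rik with 0.81, Gm31834 with 0.79, Ciart, a repressor in the circadian clock, with 0.77, and AC127256.1 with 0.76. Without the 6 libraries poor in T cell transcripts their rho ran from 0.70 to 0.89. Vamp1 stood at rank 1084, and the other 4 members stood at rank 9351 or later. The likeness is a description of these mice.

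The rest of the fusion machinery was followed in 7 lists. The Q-SNARE partners of plasma membrane and endosomes hold the syntaxins and SNAP proteins that VAMPs pair with, and 15 of 17 passed the filter. In rPS against NT 2 of them rose and 4 fell, where 10.6% of all tested genes were called higher and 10.9% lower. Stx1a, the plasma membrane syntaxin of neurosecretion, ran from 14.8 to 31.1 CPM in rPS and from 1.24 to 11.4 CPM in NT, without overlap, as was so in this direction for 1.28% of all tested genes. Its log2 fold change was 1.97 ± 0.50 (edgeR adjusted p = 0.00996), and it was 1.17 without the 6 libraries poor in T cell transcripts (edgeR adjusted p = 0.019). Snap29, a partner of Vamp8 in the fusion of autophagosomes with lysosomes, ran from 28.7 to 50.3 CPM in rPS and from 56.9 to 75.4 CPM in NT, also without overlap, as was so in this direction for 1.92%. It fell by 0.91 ± 0.15 on the log2 scale (edgeR adjusted p = 0.000547), and by 0.71 without those libraries (edgeR adjusted p = 0.0233).

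Of the other partners, Stx11, which with Munc18-2 is needed for lytic granule release, fell by 1.89 ± 0.55 on the log2 scale in rPS against NT (edgeR adjusted p = 0.0204). Stx7, a syntaxin of late endosomes, fell by 1.38 ± 0.36 (edgeR adjusted p = 0.0119). Both lost the call without the 6 libraries, at -0.53 (edgeR adjusted p = 0.212) and -0.52 (edgeR adjusted p = 0.245). In PS against NT, where 2.5% of all tested genes were called higher and 2.46% lower, 2 of the 15 partners were called, Snap29 at -0.59 ± 0.16 and Stx11 at -2.06 ± 0.61 (edgeR adjusted p = 0.0429 and 0.0496), and neither was called without the 6 libraries. No partner was called by edgeR in R or RO against NT, and DESeq2 called 0 in R. At an unadjusted edgeR p under 0.05 there were 1 and 2 of the 15, beside 13.9% and 12.7% of all tested genes. The median log2 fold change of the 15 was -0.23 in rPS against NT.

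Among 18 Sec1/Munc18, priming and docking genes, 2 rose and 1 fell in rPS against NT, all 3 losing the call without the 6 libraries, at values of 0.39, 0.31 and -1.36. In the same order they were Scfd2 at 0.45 ± 0.09, Vps33b at 0.37 ± 0.11 and Cplx2, a complexin that clamps SNARE complexes, at -1.42 ± 0.35 (edgeR adjusted p = 0.0033, 0.0234 and 0.00856). Scfd2 was also called in PS against NT, at 0.38 ± 0.10 (edgeR adjusted p = 0.0415), though not without the 6 libraries. Cplx2 also fell in R against NT, where 0.0584% of all tested genes were called higher and 0.607% lower, by 1.61 ± 0.33 on the log2 scale (edgeR adjusted p = 0.0208), from 7.26 ± 2.48 CPM in NT to 2.39 ± 0.79 CPM in R, and without the 6 libraries it was at -1.67 and not called (edgeR adjusted p = 0.136). In all 10 comparisons edgeR called 0 of the 13 SNAREs between endoplasmic reticulum and Golgi and 0 of the 4 disassembly genes around Nsf. From 0 to 7 and from 0 to 2 had an unadjusted edgeR p under 0.05. Both highest counts were in rPS against NT, beside 37.8% of all tested genes. At the settings tried for PS, R and rPS against NT, up to 2 of the 13 and 1 of the 4 were called. Of 10 sorting and VAMP-associated genes, Scamp2 and Rab11a fell in rPS against NT, by 0.64 ± 0.20 and 0.71 ± 0.26 on the log2 scale (edgeR adjusted p = 0.0241 and 0.0478). Neither was called without the 6 libraries.

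Synaptotagmins are a family that includes the calcium sensors that trigger fusion, and 4 of 15 passed the filter. Syt6 was listed between 0 and 3.35 CPM in NT, between 0.67 and 2.02 CPM in PS, between 0.15 and 23.9 CPM in R and between 12.4 and 69.4 CPM in rPS. It rose in rPS against NT by 5.08 ± 0.74 on the log2 scale (edgeR adjusted p = 0.000251) and in rPS against PS by 4.93 ± 0.94 (edgeR adjusted p = 0.0352). In R against NT it rose by 3.83 ± 0.71 (edgeR adjusted p = 0.0101). The calls held without the 6 libraries, at 4.10, 4.94 and 3.11 (edgeR adjusted p = 0.00123, 9.93e-05 and 0.0135). Of the 7 lists, Syt6 was the 1 gene called in loaded against empty carrier, beside 0.0117% of all tested genes called higher. Syt2 rose in PS and rPS against NT by 1.54 ± 0.41 and 1.54 ± 0.40 (edgeR adjusted p = 0.0415 and 0.0101), at levels of 2.63 ± 0.62, 2.54 ± 1.12 and 0.83 ± 0.33 CPM in PS, rPS and NT. Syt2 without the 6 libraries was at 2.01 in PS against NT (edgeR adjusted p = 0.163) and at 1.996 in rPS against NT (edgeR adjusted p = 0.0385).

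Of 10 genes of secretory lysosomes and granules, 6 fell and 0 rose in rPS against NT, with a median log2 fold change of -1.50 beside -0.01 over all genes. The median was -0.80 and 4 were called without the 6 libraries poor in T cell transcripts. With the B cell and macrophage covariates it was -0.78 and 5 were called. The summed level of 4 NK cell markers had a median of 52.2 CPM (42.9 to 57.7) in rPS and 99.4 CPM (47.4 to 123) in NT. No covariate for NK cells was fitted, and their part in these falls was not tested. Gzmb, a granzyme of cytotoxic cells, ran from 1.496 to 2.55 CPM in rPS and from 6.41 to 20.5 CPM in NT, and fell by 2.55 ± 0.42 on the log2 scale (edgeR adjusted p = 0.00061). Gzma fell by 2.62 ± 0.49 (edgeR adjusted p = 0.0015), and Srgn, the proteoglycan that packs granule contents, fell by 1.41 ± 0.24 (edgeR adjusted p = 0.00084). These 3 kept the call without the 6 libraries (edgeR adjusted p = 0.00162, 0.00162 and 0.0182). Lamp2, a lysosomal membrane protein, fell by 1.61 ± 0.45 (edgeR adjusted p = 0.0159) and lost the call, at -0.48 (edgeR adjusted p = 0.216). In R against NT, Gzmb alone of the 10 was called, at -1.65 ± 0.37 (edgeR adjusted p = 0.0359), and without the 6 libraries it was at -1.47 (edgeR adjusted p = 0.0556). In PS against NT it was Srgn at -1.38 ± 0.26 and Gzmb at -1.47 ± 0.42 (edgeR adjusted p = 0.0321 and 0.0483), neither called without the 6 libraries, at -1.11 and -1.15 (edgeR adjusted p = 0.143 and 0.173). Among rPS, R and RO, 0 of the 74 tested genes of the 7 lists were called by edgeR. At an unadjusted edgeR p under 0.05 there were 8 in rPS against R, beside 11% of all tested genes. There were 8 in rPS against RO beside 8.11%, and 7 in R against RO beside 2.94%.

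**Figure D4:**
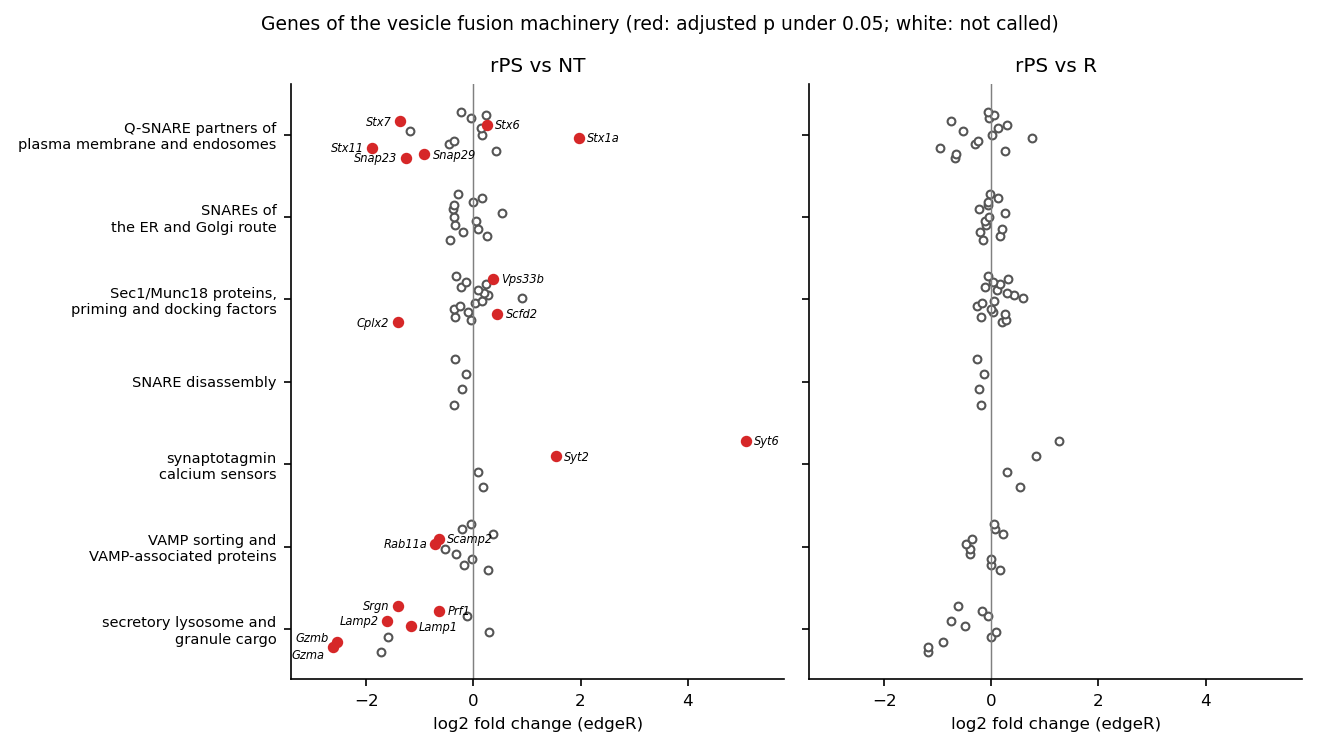
Log2 fold changes (x axis) of the genes of the 7 fusion-machinery lists (y axis) in rPS against NT and in rPS against R, 1 point per gene, red with its name where the edgeR adjusted p is under 0.05. In rPS against NT, 6 granule cargo genes lie below 0 in red and Syt6 lies farthest above, and in rPS against R no point is red.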

How the data were processed

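RNA of sorted splenic T cells was measured in 28 mice of 5 groups, with groups and replicate numbers taken from the labels. The authors deposited expected counts per Ensembl gene for each mouse, not normalized, of which 21.3% to 25.0% of the values above 0 were fractional. Per the submitters' processing notes, Trimmomatic 0.39, STAR 2.7.5a, Cufflinks 2.1.1 and Cuffdiff were used with build GRCm39. The sources used here do not name the counting program, its annotation or its handling of strand.

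Counts were rounded and joined by ID, and symbols came from GENCODE M21 (GRCm38) by ID without version, for 52134 of 55413 IDs. CPM is a gene's count per 1000000 counts of its library, and a count of 0 allows up to 3 counts, or 0.191 to 0.7 CPM, for counting error only. No 2 libraries of a group looked like repeats of each other, the lowest chi-square per gene being 3.33. Differences were tested with edgeR 4.0.16 in R 4.3.3 (quasi-likelihood, robust, two-sided, TMM, filterByExpr by group) on 27 libraries in 1 fit, with Benjamini-Hochberg adjustment over all 17132 tested genes in each comparison, and called at an adjusted p under 0.05. The fits were tested on simulated data.

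The members, lists, comparisons and alternatives were chosen with earlier results of these data known. Every member is named in each comparison. Of each list, up to 4 genes with the smallest p per comparison are named, and likeness to Vamp2 used log2 CPM with a prior count of 2. Alternatives were DESeq2 1.42.0, its size factors in edgeR, no filter, all 28 libraries, no libraries poor in T cell transcripts, a replicate block, B cell and macrophage covariates, fits of only the 2 groups compared, and leaving out each library. Promoters are from the RefSeq table of GRCm38.p6.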

Additional observations from a re-analysis of the deposited data

Results flagged for a closer look

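Among 30 sets of CPM values, each a member in a group, 5 had their highest value far from the rest. For independent sets chance gives about 1 in 20. These sets are not independent, since members varied together and some libraries were flagged for more than 1 member. Nothing is read from the count. NT replicate 5 was highest for both synaptobrevins, with Vamp1 at 260.463 CPM where the next NT mouse had 131 CPM, and Vamp2 at 132.337 CPM where the next had 84.4 CPM. This library was not among those poor in T cell transcripts. Of the other 21 libraries, though, it had the least Cd3e, at 76.0 CPM, and the most Lyz2, at 693 CPM. It is 1 of the 3 NT libraries in the fits without the 6 poor ones. RO replicate 3 was poor in T cell transcripts. It was highest for Vamp3, at 66.2 CPM beside 36.6 CPM, and for Vamp8, at 100.611 CPM beside 40.6 CPM. R replicate 3, also poor in T cell transcripts, was highest for Vamp4, at 62.5 CPM beside 45.7 CPM.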

How the results depend on the processing

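Every change of setting kept the direction of each member that was called. The calls in PS against NT and in the interaction use the levels that chose the family, so nothing is read from them. The count of members called in PS against NT, 2, was 1 with no filter and with all 28 libraries. It was 4 with DESeq2 and with only the 2 groups compared. It was 0 without the 6 libraries poor in T cell transcripts, with the replicate block and with the B cell and macrophage covariates. Leaving out 1 library gave 0 to 2, with 0 without NT replicate 7 or PS replicate 1, 3 or 4. All genes called there numbered 851, but 2 without the 6 libraries, 3 with the block, 45 with no filter and 2941 with DESeq2. In rPS against NT the 1 call was 2 with DESeq2, 0 with all 28 libraries, without the 6 libraries, with the block, with the covariates and with the 2 groups only, and 0 to 2 when 1 library was left out. A setting added after seeing the data left out the 6 libraries and NT replicate 5, so that NT held only replicates 2 and 6. These 2 had the lowest chi-square per gene of the NT pairs, 8.01. In PS against NT this setting gave 2 members (Vamp1 and Vamp2) and 1327 genes. It gave 0 members in rPS against NT and 1 in RO against NT (Vamp1). Leaving out NT replicate 5 gave 1 in R and in RO against NT, from 0 otherwise. For the interaction DESeq2 gave 1 call (Vamp2, at -1.21), and leaving out 1 library gave 0 to 2, with 2 only without NT replicate 5. Leaving out 1 library moved the interaction value from -0.86 to -0.63 for Vamp1 and from -1.35 to -1.14 for Vamp2. In the other 6 comparisons the count stayed at 0 in all settings. Of 66 fold changes, 8 uncalled ones had another sign without the 6 libraries and 10 with the covariates. Mice of different groups with the same replicate number had a median correlation of 0.043 over 38 pairs, with 16 over 0.1 and the highest at 0.86. Pairs with other replicate numbers had a median of -0.0075 over 251 pairs, with 104 over 0.1 and the highest at 0.74. The labels also carry a sample code whose number often differs from the replicate number. Whether mice with the same replicate number share more than that number was not tested further. With the block the 3 members that lost their call were at 0.61 (Vamp1) and 1.05 (Vamp2) in PS against NT and at -0.70 (Vamp3) in rPS against NT. With 4 PS mice, and total counts of 4286896 to 15696541, small differences could not be detected. The cause of these changes was not tested.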

Other observations

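Since Ciart was among the genes most like Vamp2, the genes next to Vamp2 on chromosome 11 and 12 clock genes were looked at after those values were seen. Per1, a clock gene that lies beside Vamp2 on the same strand in GENCODE M21, had a group-centred Spearman rho of 0.45 to Vamp2 over 27 libraries (rank 693 of 14255) and 0.71 over the 21 libraries not poor in T cell transcripts. Tmem107, the gene on the other side, had -0.26 and -0.20. Ciart was 2.59 ± 1.18 CPM in NT, 8.90 ± 1.67 in PS, 5.11 ± 2.28 in R, 5.22 ± 1.79 in RO and 11.7 ± 9.34 in rPS. Per2 had a rho of 0.53 and Cry2 of 0.38, while the clock genes Nr1d1 and Nr1d2 had -0.28 and -0.37 and Dbp 0.06. Per3 had 0.21, Cry1 0.16, Arntl 0.14, Tef 0.01 and Clock -0.13. Per1 was 66.3 ± 8.61 CPM in NT, 99.0 ± 12.2 in PS, 85.9 ± 26.9 in R, 75.4 ± 10.1 in RO and 96.8 ± 53.4 in rPS.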
